A study of Mus musculus with 96 samples.

Results

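The 10 genes described here encode classical heat shock chaperones and the small heat shock proteins of muscle, and were taken by name from the 54150 rows of a count table that held 54146 genes and 4 transgenes. They are Hspa1a, Hspa1b, Hspa8, Hsph1, Dnajb1, Bag3, Hsp90aa1, Hspb1, Cryab and Hspb8. RNA-seq was performed on 96 samples of C2C12, a mouse muscle cell line, in 35 conditions, to follow how proliferating and differentiated cells respond to mitochondrial inhibitors. Proliferating myoblasts grew in 10% dialyzed fetal bovine serum and were stable lentiviral lines that carried, under a doxycycline-inducible promoter, Luciferase as control, LbNOX (a bacterial water-forming NADH oxidase), mitoLbNOX (the same enzyme directed to mitochondria) or NDI1 (a yeast NADH dehydrogenase that bypasses complex I). All myoblasts, Luciferase controls included, received 300 ng/ml doxycycline from 24 hr before treatment. Untransduced cells were taken 24 hr after a switch to 2% horse serum, or after 4 days as myotubes, and other myotubes were transduced with adenovirus that carried GFP alone or GFP together with LbNOX.

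Treatments lasted 10 hr and used DMSO, the complex I inhibitor piericidin (0.5 µM), the complex III inhibitor antimycin (0.5 µM) or the ATP synthase inhibitor oligomycin (1 µM). Untransduced myotubes also received the uncoupler BAM15 (0.5 µM), 5% oxygen, or oligomycin combined with piericidin, BAM15 or 5% oxygen. The exposure to 5% oxygen began in the night before and went on through the 10 hr, so it was longer than the other treatments and preceded oligomycin. Luciferase and LbNOX myoblasts received chloramphenicol (20 µg/ml), which inhibits mitochondrial translation, or DMSO for 48 hr. There were 3 samples per condition, and 2 in the NDI1, GFP and 48 hr conditions. The sources do not say whether replicates were separate cultures, so p-values measure the spread between these samples, which may be technical.

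Heat shock proteins keep other proteins folded. When unfolded protein accumulates, the transcription factor HSF1 is released from chaperones, binds heat shock elements built from inverted repeats of GAA, and raises transcription of cytosolic HSP70, HSP40, HSP90 and small heat shock proteins. In muscle, Cryab and Hspb8 also belong to the differentiated state, in which small heat shock proteins and the cochaperone Bag3 guard the cytoskeleton and the Z-disc.

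The samples held 6458295 to 15366745 counts, with a median of 10336588.5. Each transgene had 0 counts in samples not described above as carrying it. LbNOX myotubes carried GFP as well, and mitoLbNOX was counted in the LbNOX row. Of 7 markers of myotubes, 7 had a higher median in myotubes than in myoblasts, and Myog, a regulator of muscle differentiation, was at 721 against 0.340 CPM (read counts scaled to an equal library total). Of 6 markers of proliferating myoblasts, the 3 cell cycle genes (Ccnb1, Mki67 and Top2a) were higher in myoblasts, while the 3 myogenic genes of that list went the other way, with medians in myotubes and myoblasts of 14.5 and 9.51 CPM for Myf5, 147 and 99.7 CPM for Myod1 and 214 and 78.8 CPM for Cdh15. Of 8 markers of endothelial, immune, epithelial, fat and glial cells, the highest median in a state was 2.08 CPM (Cd68 in myotubes), and Cdh5, Epcam and Adipoq had medians of 0. In bulk samples, fewer cells that express a gene and less of its RNA per cell cannot be told apart.

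Promoters of Hspa1b, Hspa1a, Hspb1 and Hsph1 are shown because they hold a pair of inverted GAA repeats, the core of the heat shock element. RefSeq promoters (GRCm38.p6) were matched by symbol for 7 of the 10 genes, and the 250 bases before each start were searched. Sequences read 5′ to 3′ on the strand of the gene, and capitals mark each match to GAANNTTC or TTCNNGAA, both of which read the same on the other strand.
Hspa1b, chr17:34959239-34959488, minus strand: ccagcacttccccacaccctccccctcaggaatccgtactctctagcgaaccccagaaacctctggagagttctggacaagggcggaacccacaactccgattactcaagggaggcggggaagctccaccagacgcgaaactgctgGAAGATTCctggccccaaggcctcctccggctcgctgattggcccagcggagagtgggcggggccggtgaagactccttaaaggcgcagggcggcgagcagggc
Hspa1a, chr17:34972157-34972406, minus strand: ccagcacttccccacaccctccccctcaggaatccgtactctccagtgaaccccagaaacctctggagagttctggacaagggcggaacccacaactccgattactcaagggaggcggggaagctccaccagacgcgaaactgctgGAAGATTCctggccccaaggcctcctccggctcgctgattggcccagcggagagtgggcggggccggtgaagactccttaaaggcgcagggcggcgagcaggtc
Hspb1, chr5:135887669-135887918, plus strand: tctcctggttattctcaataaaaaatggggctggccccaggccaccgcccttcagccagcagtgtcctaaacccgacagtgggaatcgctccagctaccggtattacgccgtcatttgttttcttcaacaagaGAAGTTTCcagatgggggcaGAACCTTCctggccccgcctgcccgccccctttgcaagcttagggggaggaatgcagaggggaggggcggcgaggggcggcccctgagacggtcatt
Hsph1, chr5:149636337-149636586, minus strand: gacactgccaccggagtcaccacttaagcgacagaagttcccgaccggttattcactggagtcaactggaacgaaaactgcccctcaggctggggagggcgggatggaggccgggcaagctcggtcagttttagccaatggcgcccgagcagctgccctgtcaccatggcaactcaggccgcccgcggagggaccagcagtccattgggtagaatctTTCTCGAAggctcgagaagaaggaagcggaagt

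Hspa1a and Hspa1b carried GAANNTTC at position -104 from the start, and 247 of their 250 promoter bases were identical. Hspb1 carried it at positions -117 and -97. GAANNTTC was found in 6.69% of 32851 promoters of this length. TTCNNGAA, which was added after the sequences had been seen and starts at position -33 in the Hsph1 promoter shown, was found in 7.17%. The longer element, GAANNTTC followed by NNGAA, or its reverse complement, was in 0.466% of all promoters and in 0 of the promoters of these 7 genes. Bag3, Hspb8 and Dnajb1 held none of these letters in the window. A match is a description of the sequence, and binding was not measured.

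In GRCm38 coordinates, Hspa1a lies on chromosome 17, 34969190 to 34972156, minus strand. Hspa1b lies on chromosome 17, 34956436 to 34959238, minus strand. Hspa8 lies on chromosome 9, 40800984 to 40810087, plus strand. Hsph1 lies on chromosome 5, 149614287 to 149636376, minus strand. Dnajb1 lies on chromosome 8, 83608193 to 83612653, plus strand. Bag3 lies on chromosome 7, 128523616 to 128546981, plus strand. Hsp90aa1 lies on chromosome 12, 110690605 to 110702728, minus strand. Hspb1 lies on chromosome 5, 135887919 to 135889563, plus strand. Cryab lies on chromosome 9, 50751325 to 50756636, plus strand. Hspb8 lies on chromosome 5, 116408491 to 116422864, minus strand. Hspa1a and Hspa1b are neighbouring genes of 1 exon each and encode the inducible cytosolic HSP70. Of the 31-base words of the Hspa1a transcript, 63.8% also occur in Hspa1b, and of those of Hspa1b, 67.6% occur in Hspa1a, so the division of counts between them is uncertain and their sum is also given.

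With DMSO, Hspa8 was the most abundant of the 10 genes and the inducible HSP70 pair the least abundant in each cell state. Per kilobase of exon, the mean level of Hspa8, the constitutive cytosolic HSP70, was 757 CPM in Luciferase myoblasts, 545 CPM after 24 hr in low serum and 491 CPM in myotubes. Hspa1b and Hspa1a were at 8.24 and 1.24 CPM per kilobase in myoblasts. Hsp90aa1 ranked 2 of 10 in myoblasts (216 CPM per kilobase) and 5 in myotubes (75.7), and Cryab ranked 5 in myoblasts (54.3) and 3 in myotubes (288).

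Over the 35 conditions, mean levels varied most for the inducible HSP70 pair and least for Hspa8. The sum of Hspa1a and Hspa1b ran from 4.82 CPM in Luciferase myoblasts with oligomycin to 67.0 CPM in LbNOX myoblasts with antimycin, a ratio of 13.9. The ratio of the highest to the lowest condition mean was 8.59 for Cryab, 5.86 for Hspb8, 5.45 for Dnajb1, 4.29 for Hsp90aa1, 3.81 for Hspb1, 2.93 for Hsph1, 2.75 for Bag3 and 2.61 for Hspa8. Luciferase myoblasts with oligomycin had the lowest mean of Hspa1a, Hspa1b, Bag3, Cryab and Hspb8 and the highest mean of Hsp90aa1. Ordered by mean, neighbouring conditions overlapped in 21 of 34 pairs for Hspb8 and 33 of 34 for Bag3, the fewest and the most apart from the 34 of Hspa1a, so most neighbours did not differ beyond their spread.

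In Luciferase myoblasts, each inhibitor lowered the HSP70 pair, Hspa8, Hsph1 and Dnajb1. Hspb1 and Hspb8 rose with piericidin and antimycin and fell with oligomycin, while Cryab rose with antimycin and fell with piericidin and oligomycin. By edgeR's quasi-likelihood F test at an adjusted p under 0.05, piericidin raised 3 and lowered 6 of the 10 genes, antimycin raised 3 and lowered 6, and oligomycin raised 1 and lowered 9. The same test found 30.9% of all genes tested higher and 30.8% lower for piericidin, 32.1% of all genes tested higher and 31.1% lower for antimycin and 24.5% of all genes tested higher and 26.3% lower for oligomycin. The median log2 fold change of the 10 genes was -0.48, -0.27 and -1.08, while that of all genes was -0.00368, -0.00478 and -0.0148. The scaling between samples tends to keep the median of all genes small. The 3 comparisons share their DMSO samples.

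The inducible HSP70 genes had the lowest fold changes. Hspa1b stood at 24.3, 21.5 and 23.5 CPM with DMSO and at 9.98, 9.02 and 7.69 CPM with piericidin. It stood at 4.73, 5.77 and 5.30 CPM with antimycin and 4.58, 4.76 and 3.80 CPM with oligomycin. Every treated sample lay below every DMSO sample. The log2 fold changes of Hspa1b were -1.34 ± 0.13, -2.09 ± 0.14 and -2.37 ± 0.14 (± SE; edgeR adjusted p = 2.44e-10, 4.66e-14 and 5.09e-15). The sum of Hspa1a and Hspa1b went to 0.364-fold (95% interval 0.300 to 0.441) with piericidin, 0.239-fold (95% interval 0.195 to 0.293) with antimycin and 0.184-fold (95% interval 0.149 to 0.226) with oligomycin. Hspa1a by itself had 22 to 73 counts per DMSO sample and 0 to 11 counts per treated sample, and its log2 fold changes were -2.52 ± 0.60, -1.92 ± 0.56 and -2.95 ± 0.61. Single libraries moved the fold by over 1.5 times, to log2 values of -3.45 without Luciferase piericidin replicate 1 and of -4.14 without Luciferase oligomycin replicate 2.

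Hspa8, which folds newly made proteins and uncoats clathrin vesicles, had 1874, 1793 and 1771 CPM with DMSO. It had 746, 817 and 761 CPM with piericidin, 765, 818 and 785 CPM with antimycin and 821, 847 and 793 CPM with oligomycin. The treated samples lay far below the DMSO samples, and the samples of the 3 treatments overlapped each other. The log2 fold changes of Hspa8 were -1.19 ± 0.03, -1.16 ± 0.03 and -1.13 ± 0.03 (edgeR adjusted p = 5.22e-23, 8.72e-23 and 3.02e-22).

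Hsph1, the HSP110 that exchanges nucleotides on HSP70, went from 265, 237 and 252 CPM with DMSO to 119, 138 and 128 CPM with piericidin. It went to 86.9, 88.0 and 82.3 CPM with antimycin and 133, 117 and 115 CPM with oligomycin. No treated sample overlapped with DMSO, and the antimycin samples were the lowest. The log2 fold changes were -0.94 ± 0.06, -1.51 ± 0.06 and -1.04 ± 0.06 (edgeR adjusted p = 5.07e-14, 6.76e-19 and 8.15e-15), and antimycin differed from piericidin by -0.57 ± 0.06 and from oligomycin by -0.47 ± 0.06 on the log2 scale.

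Dnajb1, the HSP40 that hands clients to HSP70, stood at 107, 114 and 119 CPM with DMSO. It stood at 84.5, 75.5 and 79.7 CPM with piericidin, 90.7, 84.3 and 88.7 CPM with antimycin and 54.8, 50.1 and 51.2 CPM with oligomycin. All treated samples were below DMSO, and those with oligomycin were lowest. The log2 fold changes of Dnajb1 were -0.48 ± 0.05, -0.33 ± 0.05 and -1.11 ± 0.05 (edgeR adjusted p = 1.23e-09, 1.13e-06 and 9.19e-18).

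Bag3, which links HSP70 to Hspb8 in selective autophagy, stood at 67.8, 67.3 and 73.6 CPM with DMSO and 70.0, 67.5 and 69.5 CPM with piericidin, and these groups overlapped. It stood at 61.1, 58.8 and 55.8 CPM with antimycin and 29.7, 29.7 and 27.7 CPM with oligomycin, below DMSO in each sample. The log2 fold changes were 0.02 ± 0.07, -0.20 ± 0.07 and -1.25 ± 0.08 (edgeR adjusted p = 0.812, 0.0158 and 1.12e-14). With antimycin, Bag3 lost its call without the count filter and without antimycin replicate 3 (log2 -0.26 to -0.17 with single libraries left out). Hsp90aa1, the stress-inducible cytosolic HSP90, rose with oligomycin from 765, 723 and 706 CPM to 904, 933 and 904 CPM, with no overlap, by 0.33 ± 0.04 on the log2 scale (edgeR adjusted p = 2.12e-08). With piericidin its log2 fold change of 0.10 ± 0.04 came from overlapping groups, and the call was lost without the count filter, with only the groups compared modelled and without any 1 of DMSO replicates 2 and 3 and piericidin replicates 1 and 2 (log2 0.04 to 0.13 with single libraries left out). With antimycin, Hsp90aa1, not called at -0.08 ± 0.04, passed without any 1 of antimycin replicate 2 and DMSO replicate 3 (log2 -0.17 to -0.04 with single libraries left out).

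Hspb1, a small heat shock protein that binds actin, stood at 228, 207 and 225 CPM with DMSO. It stood at 382, 389 and 397 CPM with piericidin, 392, 398 and 378 CPM with antimycin and 195, 188 and 187 CPM with oligomycin. It was thus higher in every sample with the inhibitors of electron transport and lower in every sample with oligomycin. The log2 fold changes were 0.86 ± 0.04, 0.87 ± 0.04 and -0.20 ± 0.04 (edgeR adjusted p = 1.38e-16, 9.28e-17 and 0.000343).

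Hspb8, which works with Bag3, changed with the same signs as Hspb1, at log2 fold changes of 0.52 ± 0.06, 0.63 ± 0.05 and -0.23 ± 0.06, but the oligomycin samples (69.5, 80.2 and 68.3 CPM) overlapped with the DMSO samples (89.2, 89.7 and 78.1 CPM), and the oligomycin call was lost with only the groups compared modelled. Cryab, the αB-crystallin that stabilises desmin, stood at 75.9, 69.02 and 65.6 CPM with DMSO. It stood at 48.5, 50.2 and 48.9 CPM with piericidin, 85.1, 93.9 and 85.9 CPM with antimycin and 39.9, 48.4 and 46.7 CPM with oligomycin. Antimycin samples lay above DMSO and the others below it, and antimycin differed from piericidin by 0.85 ± 0.08 on the log2 scale (edgeR adjusted p = 2.59e-10).

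Between inhibitors, the genes that differed were led by small heat shock proteins, Bag3 and Hspa1b. Antimycin against piericidin gave 2 genes higher and 4 lower, with 19.3% of all genes tested higher and 17.9% lower. Dnajb1 lost its call with DESeq2's Wald test, without the count filter, with only the groups compared modelled and without any 1 of antimycin replicates 1 and 3 and piericidin replicate 2 (log2 0.11 to 0.19 with single libraries left out). Bag3 lost its call without the count filter and without antimycin replicate 3 (log2 -0.26 to -0.20 with single libraries left out). Hspa1a at 0.60 ± 0.69 did not pass, while its sum with Hspa1b turned to the other direction and passed (log2 -0.61 ± 0.16, edgeR adjusted p = 0.00403). Alone, Hspa1a ran from log2 0.03 to 1.53 with single libraries left out. Antimycin against oligomycin gave 5 and 2, with 26.1% of all genes tested higher and 23.9% lower, and the largest differences that passed were 1.07 ± 0.04 for Hspb1 and 1.04 ± 0.08 for Bag3. Hspa1a, not called at 1.03 ± 0.71, passed without oligomycin replicate 2 (log2 0.56 to 2.22 with single libraries left out). Piericidin against oligomycin gave 5 and 1, with 20% of all genes tested higher and 19.2% lower, and the largest that passed were 1.27 ± 0.08 for Bag3 and 1.06 ± 0.04 for Hspb1. Hspa1a at 0.43 ± 0.76 did not pass, while its sum with Hspa1b did (log2 0.99 ± 0.17, edgeR adjusted p = 1.8e-05). Alone, Hspa1a ran from log2 -0.50 to 1.61 with single libraries left out. Hspa8, not called at -0.06 ± 0.03, passed without piericidin replicate 2 (log2 -0.10 to -0.04 with single libraries left out).

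**Figure D1:**
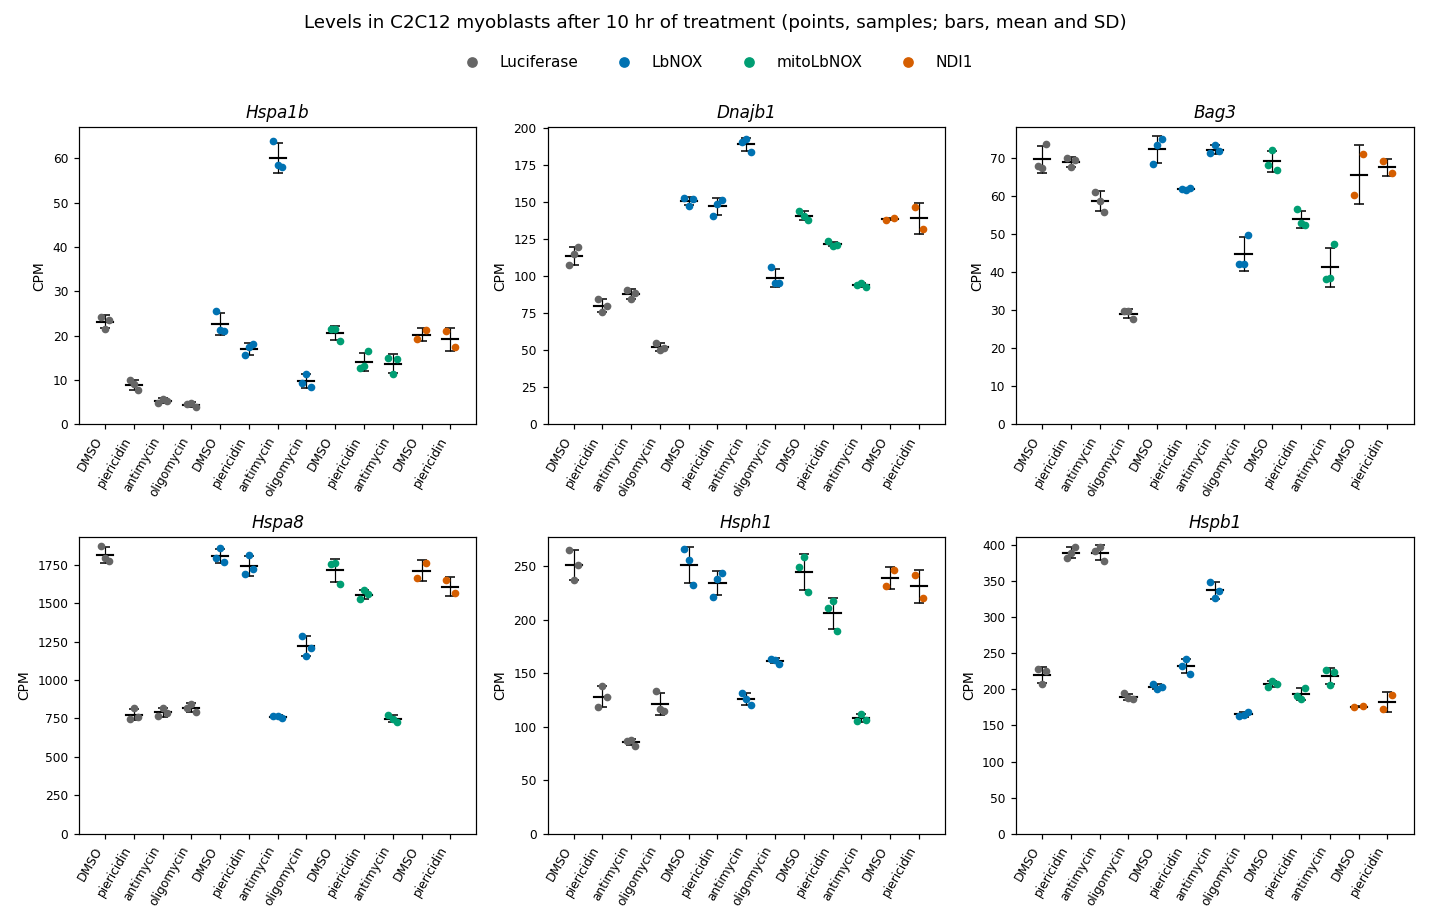
CPM (vertical axes from 0) of 6 heat shock genes in myoblasts after 10 hr of treatment in 13 conditions, with 1 point per sample and the mean and SD as bars. Hspa1b with antimycin sat at 58.0 to 64.0 CPM in LbNOX samples and at 4.73 to 5.77 CPM in Luciferase samples.

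Other chaperone families did not share 1 direction in Luciferase myoblasts. Among all genes tested, 30.9%, 32.1% and 24.5% rose and 30.8%, 31.1% and 26.3% fell with piericidin, antimycin and oligomycin, and the counts of each family are to be read against these shares. Of 7 other HSP70 and HSP110 genes, 6, 6 and 5 fell and 0, 0 and 1 rose with piericidin, antimycin and then oligomycin, and Hspa4l changed by -1.15, -0.69 and -1.22 (log2). Of the 8 subunits of CCT, the chaperonin that folds actin and tubulin, 8, 7 and 8 rose and 0, 0 and 0 fell. Of 9 chaperones and proteases of the endoplasmic reticulum and mitochondria, 7, 7 and 7 rose and 1, 1 and 2 fell, and the mitochondrial protease Lonp1 changed by 2.52, 1.80 and 2.42. Of 11 other genes of the HSP90 system, 3, 0 and 2 rose and 4, 7 and 4 fell. Of 9 J proteins, 5, 5 and 4 rose and 2, 2 and 1 fell, and Dnaja1, a close relative of Dnajb1 in function, changed by -0.47, -0.92 and -0.87.

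Of 10 other known targets of HSF1, 7, 8 and 5 rose and 2, 2 and 3 fell, with median log2 fold changes of 0.70, 0.53 and 0.21, where 30.9%, 32.1% and 24.5% of all genes tested rose and 30.8%, 31.1% and 26.3% fell. The leading ones were Sqstm1, the autophagy receptor, at 3.21, 2.99 and 1.77, and Hmox1, heme oxygenase, at 2.88, 3.79 and 1.38, both also known as targets of the antioxidant factor NRF2. Of 7 partners of Bag3 and Hspb8 in muscle, 4, 7 and 4 rose and 1, 0 and 1 fell, and Flnc, the filamin cleared by Bag3, changed by 2.37, 2.13 and 2.14. The message of Hsf1 changed by 0.18 ± 0.06, 0.59 ± 0.06 and 0.19 ± 0.06 (log2), and HSF1 protein was not measured.

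Inhibitors were also given to the lines with NADH-oxidizing enzymes. Because NDI1 maintains ATP synthesis as well as NADH oxidation, these cannot be told apart in NDI1 cells. With DMSO, Dnajb1 and Hspb8 were higher in each enzyme line than in Luciferase cells. LbNOX cells differed in Dnajb1 (0.40 ± 0.05) and Hspb8 (0.38 ± 0.05), with 1.3% of all genes tested higher and 1.38% lower. MitoLbNOX cells differed in Dnajb1 (0.30 ± 0.05) and Hspb8 (0.31 ± 0.05), with 0.985% of all genes tested higher and 0.785% lower. NDI1 cells differed in Hspb1 (-0.33 ± 0.05), Dnajb1 (0.28 ± 0.05) and Hspb8 (0.40 ± 0.06), with 2.74% of all genes tested higher and 1.87% lower. Values in parentheses are log2 differences ± SE, and the lines share the Luciferase samples. In mitoLbNOX cells, Hspb8 lost its call with only the groups compared modelled. In NDI1 cells, Dnajb1 lost its call without the count filter and with only the groups compared modelled.

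With piericidin, 2, 6 and 0 of the 10 genes passed in LbNOX, mitoLbNOX and NDI1 cells. In LbNOX cells Hspa1b (-0.38 ± 0.12) and Hspb1 (0.21 ± 0.04) passed, with 5.01% of all genes tested higher and 3.86% lower, and the other 8 genes had log2 fold changes of -0.88 to 0.10. Hspa1b lost its call without the count filter, with only the groups compared modelled, with the well as covariate and without any 1 of DMSO replicates 1 and 2 and piericidin replicates 1, 2 and 3 (log2 -0.43 to -0.28 with single libraries left out). Hspa1a at -0.88 ± 0.52 did not pass, while its sum with Hspa1b did (log2 -0.43 ± 0.13, edgeR adjusted p = 0.0376). Bag3, not called at -0.20 ± 0.07, passed with the well as covariate. Hspb8, not called at -0.16 ± 0.05, passed with the replicate block and without piericidin replicate 2 (log2 -0.21 to -0.12 with single libraries left out). In mitoLbNOX cells Hspa1b (-0.54 ± 0.12), Dnajb1 (-0.19 ± 0.05), Hsph1 (-0.23 ± 0.06), Bag3 (-0.34 ± 0.07), Hspa8 (-0.12 ± 0.03) and Hspb8 (-0.26 ± 0.05) were lower, with 6.37% of all genes tested higher and 4.82% lower, and the other 4 genes had log2 fold changes of -0.08 to 0.09. Dnajb1 lost its call without the count filter. Hsph1 lost its call without any 1 of DMSO replicate 2 and piericidin replicate 3 (log2 -0.27 to -0.18 with single libraries left out). Hspa8 lost its call with the well as covariate and without any 1 of DMSO replicates 1 and 2 and piericidin replicate 1 (log2 -0.15 to -0.10 with single libraries left out). Hspa1a at 0.09 ± 0.52 did not pass, while its sum with Hspa1b turned to the other direction and passed (log2 -0.47 ± 0.13, edgeR adjusted p = 0.0181). In NDI1 cells 0 of 10 genes passed in edgeR and 0 in DESeq2, where 1 (Hspb8) had an unadjusted p under 0.05, with 0.00835% of all genes tested higher and 0% lower, and log2 fold changes were -0.15 to 0.60. The highest was that of Hspa1a, which ran from -0.03 to 1.11 with single libraries left out. Its sum with Hspa1b was at 0.04 ± 0.16.

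Hspa8 shows the contrast with Luciferase cells. It had 1796, 1856 and 1768 CPM with DMSO and 1691, 1814 and 1719 CPM with piericidin in LbNOX cells, which overlap. In mitoLbNOX cells it had 1754, 1760.4 and 1626 CPM and 1524, 1583 and 1558 CPM. In NDI1 cells it had 1662 and 1758 CPM and 1653 and 1563 CPM. Piericidin-treated samples of these lines all lay above the 746 to 817 CPM of Luciferase cells.

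The difference in the piericidin response from that of Luciferase cells, tested as an interaction in edgeR, passed for 8 genes with LbNOX, 10 with mitoLbNOX and 8 with NDI1, and for 44.3%, 42.8% and 42.7% of all genes. For Hspa8 it was 1.16 ± 0.05, 1.07 ± 0.05 and 1.13 ± 0.05 (log2; adjusted p = 2.35e-18, 2.29e-17 and 5.67e-17). For Hspb1 it was -0.65 ± 0.06, -0.94 ± 0.06 and -0.78 ± 0.07, and for Hsph1 0.86 ± 0.09, 0.71 ± 0.09 and 0.92 ± 0.10. With LbNOX, the call of Hsp90aa1 was lost without the count filter and without any 1 of LbNOX DMSO replicates 1 and 3, Luciferase DMSO replicates 2 and 3, LbNOX piericidin replicates 1, 2 and 3 and Luciferase piericidin replicates 1 and 2 (log2 -0.18 to -0.09 with single libraries left out). With mitoLbNOX, that of Dnajb1 was lost without the count filter. With mitoLbNOX, that of Hsp90aa1 was lost without the count filter and without any 1 of Luciferase DMSO replicate 3, mitoLbNOX DMSO replicate 1 and mitoLbNOX piericidin replicates 1 and 3 (log2 -0.19 to -0.10 with single libraries left out). With LbNOX, the interaction of Hspa1a, not called at 1.64 ± 0.81, passed when summed with Hspa1b and without Luciferase piericidin replicate 1 (log2 1.07 to 2.57 with single libraries left out). With NDI1, that of Hsp90aa1, not called at -0.14 ± 0.06, passed with the replicate block and without Luciferase DMSO replicate 1 (log2 -0.17 to -0.09 with single libraries left out). These tests share the Luciferase samples.

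With antimycin, LbNOX cells raised the inducible HSP70 pair and Dnajb1 above DMSO, while Hspa8 and Hsph1 fell. Hspa1b stood at 25.5, 21.2 and 20.9 CPM with DMSO and 64.0, 58.4 and 58.0 CPM with antimycin, without overlap. Its log2 fold change was 1.45 ± 0.12 (edgeR adjusted p = 1.23e-11), and the sum of Hspa1a and Hspa1b rose 2.69-fold (95% interval 2.27 to 3.20). In all, 5 of the 10 genes rose and 3 fell, with 23.3% of all genes tested higher and 22.9% lower. Hspa1a alone was at 1.24 ± 0.47 and Hspb8 at -0.15 ± 0.05. Hspa1a lost its call without any 1 of antimycin replicates 1 and 3 and DMSO replicates 1, 2 and 3 (log2 0.98 to 1.41 with single libraries left out). Hspb8 lost its call without the count filter and without any 1 of antimycin replicate 3 and DMSO replicate 2 (log2 -0.17 to -0.15 with single libraries left out).

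Dnajb1 went from 153, 147 and 152 CPM to 190.2, 192 and 184 CPM (log2 0.36 ± 0.05), and Hspb1 from 208, 200.1 and 204 CPM to 349, 326 and 336 CPM (log2 0.76 ± 0.04). Hspa8 went from 1796, 1856 and 1768 CPM to 764, 766 and 749.5 CPM (log2 -1.21 ± 0.03), and Hsph1 from 266, 256 and 233 CPM to 132, 126 and 121 CPM (log2 -0.96 ± 0.06). In none of these 4 genes did antimycin samples overlap with DMSO. Bag3 and Hsp90aa1 did not pass, at 0.04 ± 0.07 and 0.02 ± 0.04.

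The interaction of antimycin with LbNOX passed for 6 genes and 51.5% of all genes. It was 3.54 ± 0.18 for Hspa1b and 0.69 ± 0.07 for Dnajb1 (log2; edgeR adjusted p = 2.25e-16 and 9.72e-10). For Hspa8 it was -0.06 ± 0.05 and did not pass (adjusted p = 0.352). The interaction call of Bag3 was lost with DESeq2's Wald test, without the count filter and without any 1 of LbNOX antimycin replicates 1 and 2, Luciferase antimycin replicate 3, LbNOX DMSO replicates 1 and 2 and Luciferase DMSO replicate 3 (log2 0.20 to 0.31 with single libraries left out). The interaction of Hsp90aa1, not called at 0.10 ± 0.06, passed without any 1 of Luciferase antimycin replicate 2 and Luciferase DMSO replicate 3 (log2 0.06 to 0.17 with single libraries left out). The LbNOX message had a mean of 899 CPM with DMSO, 952 CPM with piericidin, 863 CPM with oligomycin and 269 CPM with antimycin in LbNOX myoblasts. In mitoLbNOX myoblasts the same row had 1821 CPM with DMSO and 765 CPM with antimycin. The Luciferase message of the control line had 184 CPM with DMSO, 242 CPM with piericidin, 97.9 CPM with antimycin and 109 CPM with oligomycin. The part of the transgene level in the result was not tested.

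In mitoLbNOX cells, antimycin raised 2 genes and lowered 7, with 24.8% of all genes tested higher and 22.9% lower. Those that passed were Hspa1b (-0.54 ± 0.12), Hspb1 (0.12 ± 0.04), Cryab (0.48 ± 0.07), Dnajb1 (-0.54 ± 0.05), Hsph1 (-1.14 ± 0.06), Hsp90aa1 (-0.39 ± 0.04), Bag3 (-0.69 ± 0.07), Hspa8 (-1.15 ± 0.03) and Hspb8 (-0.22 ± 0.05), of which Hspb1 overlapped with DMSO. Hspb1 lost its call with DESeq2's Wald test, without the count filter, with only the groups compared modelled and without any 1 of antimycin replicates 1 and 3 and DMSO replicate 1 (log2 0.07 to 0.15 with single libraries left out). Hspa1a, not called at -1.38 ± 0.60, passed with DESeq2's Wald test, when summed with Hspa1b, without the count filter and with only the groups compared modelled. Hspa1b went from 21.4, 21.5 and 18.8 CPM to 14.9, 11.3 and 14.8 CPM (log2 -0.54 ± 0.12), and Bag3 from 68.2, 72.1 and 66.8 CPM to 38.3, 38.4 and 47.2 CPM (log2 -0.69 ± 0.07). Both were lower in every antimycin sample. The interaction with antimycin passed for 7 genes and 31.7% of all genes, at 1.54 ± 0.19 for Hspa1b and -0.49 ± 0.10 for Bag3. For Dnajb1 that interaction was no longer called without the count filter, with only the groups compared modelled and without any 1 of Luciferase antimycin replicate 1, Luciferase DMSO replicate 1 and mitoLbNOX DMSO replicate 1 (log2 -0.23 to -0.17 with single libraries left out). The interaction of Hspa1a, not called at 0.54 ± 0.84, passed when summed with Hspa1b.

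Oligomycin in LbNOX cells raised 1 gene, Hsp90aa1, and lowered 8, with 17.5% of all genes tested higher and 17.7% lower. The genes that passed were Hspa1b (-1.20 ± 0.13), Hspb1 (-0.27 ± 0.04), Cryab (-0.55 ± 0.08), Dnajb1 (-0.58 ± 0.05), Hsph1 (-0.61 ± 0.06), Hsp90aa1 (0.18 ± 0.04), Bag3 (-0.66 ± 0.07), Hspa8 (-0.54 ± 0.03) and Hspb8 (-0.32 ± 0.06). Hspa1a, not called at -1.23 ± 0.54, passed with DESeq2's Wald test, when summed with Hspa1b and with only the groups compared modelled. Bag3 stood at 68.3, 73.4 and 74.9 CPM with DMSO and 42.1, 42.1 and 49.8 CPM with oligomycin, which is below DMSO and above the 27.7 to 29.7 CPM of Luciferase cells with oligomycin. The interaction passed for 5 genes and 7.98% of all genes. They were Hspa1b (1.17 ± 0.19), Dnajb1 (0.53 ± 0.07), Hsph1 (0.43 ± 0.09), Bag3 (0.58 ± 0.10) and Hspa8 (0.59 ± 0.05), and each of these 5 fell less with LbNOX. That of Hspa1a, not called at 1.73 ± 0.83 (log2 1.25 to 2.91 with single libraries left out), passed when summed with Hspa1b. That of Hsp90aa1, not called at -0.15 ± 0.06, passed with DESeq2's Wald test, with the well as covariate and with the replicate block.

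Chloramphenicol over 48 hr, in medium with uridine, changed few of these genes. In Luciferase cells, Dnajb1 was at 75.9 and 75.3 CPM against 90.8 and 98.0 CPM with DMSO, without overlap, a log2 fold change of -0.27 ± 0.06 (edgeR adjusted p = 0.0346), with 4.83% of all genes tested higher and 3.62% lower. Dnajb1 lost its call with only the groups compared modelled, with the well as covariate, with the replicate block and without any 1 of chloramphenicol replicates 1 and 2 and DMSO replicates 1 and 2 (log2 -0.31 to -0.23 with single libraries left out). The other 8 genes tested had log2 fold changes of -0.55 to 0.11, and Hspa1a had too few counts to be tested. Hspa1b, not called at -0.55 ± 0.19, passed without the count filter. In LbNOX cells 0 of 9 genes passed in edgeR and 0 in DESeq2, 4 had an unadjusted p under 0.05, and the test found 0.675% of all genes tested higher and 0.256% lower. The interaction passed for 0 genes in edgeR and 0 in DESeq2, 3 had an unadjusted p under 0.05, and 0.53% of all genes passed. The interaction of Hspa8, not called at 0.14 ± 0.06, passed without the count filter.

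**Figure D2:**
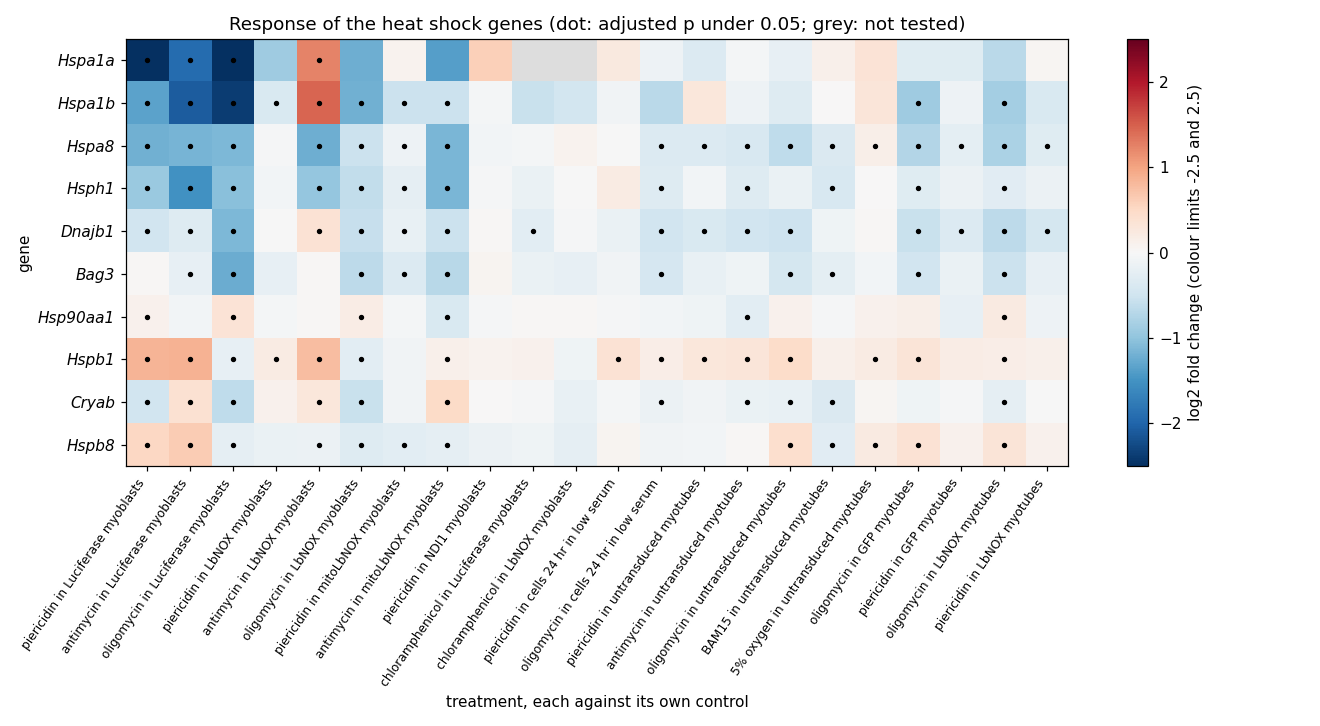
Log2 fold change (colour) of the 10 heat shock genes, in rows, for 22 treatments against their own controls, in columns, with dots where the edgeR adjusted p is under 0.05 and grey where a gene was not tested. Hspa1b is -2.37 with oligomycin in Luciferase myoblasts and 1.45 with antimycin in LbNOX myoblasts.

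In untransduced myotubes, Hspa8 and Dnajb1 fell with piericidin, antimycin and oligomycin, and Hspb1 rose with all 3. Piericidin gave Hspb1 (0.29 ± 0.06), Dnajb1 (-0.39 ± 0.07) and Hspa8 (-0.33 ± 0.04), with 4.15% of all genes tested higher and 4.84% lower. Antimycin gave Hspb1 (0.29 ± 0.06), Cryab (-0.16 ± 0.04), Dnajb1 (-0.48 ± 0.07), Hsph1 (-0.32 ± 0.07), Hsp90aa1 (-0.26 ± 0.05) and Hspa8 (-0.40 ± 0.04), with 6.64% of all genes tested higher and 6.27% lower. Oligomycin gave Hspb1 (0.47 ± 0.06), Cryab (-0.19 ± 0.04), Dnajb1 (-0.52 ± 0.07), Bag3 (-0.44 ± 0.06), Hspa8 (-0.64 ± 0.04) and Hspb8 (0.42 ± 0.05), with 16.9% of all genes tested higher and 16.4% lower. BAM15 gave Cryab (-0.35 ± 0.04), Hsph1 (-0.39 ± 0.07), Bag3 (-0.25 ± 0.06), Hspa8 (-0.35 ± 0.04) and Hspb8 (-0.29 ± 0.05), with 13.2% of all genes tested higher and 12.2% lower. Exposure to 5% oxygen gave Hspb1 (0.20 ± 0.06), Hspa8 (0.15 ± 0.04) and Hspb8 (0.23 ± 0.05), with 12.3% of all genes tested higher and 9.78% lower. Values in parentheses are log2 fold changes ± SE of genes that passed in edgeR. The genes that did not pass had log2 fold changes of -0.35 to 0.27 with piericidin, -0.14 to 0.02 with antimycin, -0.32 to 0.11 with oligomycin, -0.11 to 0.14 with BAM15 and -0.06 to 0.35 at 5% oxygen. These comparisons share 1 set of DMSO samples. With antimycin, Cryab lost its call without the count filter. With oligomycin, Hspa1b, not called at -0.32 ± 0.15, passed without oligomycin replicate 2 (log2 -0.45 to -0.22 with single libraries left out). Hsph1, not called at -0.17 ± 0.07, passed without oligomycin replicate 1 (log2 -0.25 to -0.12 with single libraries left out). Hsp90aa1, not called at 0.11 ± 0.05, passed without oligomycin replicate 2 (log2 0.07 to 0.17 with single libraries left out). At 5% oxygen, Hspb1 lost its call without 5% oxygen replicate 2 (log2 0.15 to 0.23 with single libraries left out). Hspa8 lost its call without the count filter and without any 1 of DMSO replicates 1 and 3 and 5% oxygen replicates 1 and 2 (log2 0.11 to 0.19 with single libraries left out). Without 5% oxygen replicate 2, the count of 3 became 1.

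Hspa8 had 1149, 1242 and 1137 CPM with DMSO and 877, 920.2 and 995 CPM with piericidin. It had 879, 889.6 and 888 CPM with antimycin, 774, 737 and 751 CPM with oligomycin and 909.9, 948 and 890.0 CPM with BAM15. With 5% oxygen it had 1346, 1285 and 1272 CPM. Treated samples lay below DMSO with the 4 compounds and above it at 5% oxygen. Dnajb1 went from 56.3, 58.6 and 54.3 CPM to 42.9, 36.6 and 38.4 CPM with oligomycin, without overlap (edgeR adjusted p = 1.14e-06). The HSP70 pair did not pass with any of the 5 treatments, and the sum of Hspa1a and Hspa1b was 14.7, 14.0 and 14.5 CPM with DMSO.

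Hspb8 went from 309, 321 and 329 CPM with DMSO to 439, 414 and 425 CPM with oligomycin and 384, 374 and 363 CPM at 5% oxygen, above DMSO in each sample. With BAM15 it had 245, 269 and 267 CPM, below DMSO in each sample. Cryab went from 365, 368 and 384 CPM to 325, 307 and 341 CPM with oligomycin and 287, 287 and 296 CPM with BAM15, without overlap. Bag3 went from 68.2, 69.9 and 74.8 CPM to 54.7, 49.7 and 51.6 CPM with oligomycin.

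The combinations asked whether the oligomycin response depends on respiration or the membrane potential. With each of them Hspa8 was higher, and Hspb8 lower, than with oligomycin alone. Hspa8 went from 774, 737 and 751 CPM to 962, 995 and 996 CPM with added piericidin, 1006, 1094 and 1013 CPM with added BAM15 and 1125, 1154 and 1161 CPM at 5% oxygen. Hspb8 went from 439, 414 and 425 CPM to 348, 328 and 338 CPM, 284, 302 and 312 CPM, and 373, 356 and 403 CPM. None of these groups overlapped with oligomycin alone. At 5% oxygen, Hspb8 lost its call with only the groups compared modelled and without any 1 of 5% oxygen with oligomycin replicates 1 and 2 (log2 -0.22 to -0.12 with single libraries left out). The log2 differences were 0.38 ± 0.04, 0.46 ± 0.04 and 0.62 ± 0.04 for Hspa8 and -0.34 ± 0.05, -0.51 ± 0.05 and -0.16 ± 0.05 for Hspb8 (edgeR adjusted p = 2.89e-07, 7.66e-09 and 2.56e-11 for Hspa8). These differences include the effect of the added agent itself. Piericidin alone had means of 931 CPM for Hspa8 and 303 CPM for Hspb8, against 984 and 338 CPM in combination with oligomycin. BAM15 alone had means of 916 and 260 CPM, against 1038 and 299.5 CPM in combination.

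Added piericidin raised 4 genes and lowered 2, with 8.46% of all genes tested higher and 12.4% lower. They were Hspa1b (0.52 ± 0.15), Cryab (0.13 ± 0.04), Hsp90aa1 (-0.17 ± 0.05), Bag3 (0.25 ± 0.06), Hspa8 (0.38 ± 0.04) and Hspb8 (-0.34 ± 0.05). Added BAM15 raised 4 and lowered 3, with 12% of all genes tested higher and 14.1% lower, namely Hspa1b (0.49 ± 0.15), Hspb1 (-0.26 ± 0.06), Cryab (-0.13 ± 0.04), Dnajb1 (0.42 ± 0.07), Bag3 (0.19 ± 0.06), Hspa8 (0.46 ± 0.04) and Hspb8 (-0.51 ± 0.05). Added 5% oxygen raised 5 and lowered 3, with 16.7% of all genes tested higher and 16.5% lower, namely Hspa1b (0.59 ± 0.15), Hspb1 (-0.23 ± 0.06), Cryab (0.18 ± 0.04), Dnajb1 (0.41 ± 0.07), Hsp90aa1 (-0.17 ± 0.05), Bag3 (0.26 ± 0.06), Hspa8 (0.62 ± 0.04) and Hspb8 (-0.16 ± 0.05). Hsp90aa1 overlapped with oligomycin alone in the first and the third. With added piericidin, Hspa1b lost its call without the count filter, with only the groups compared modelled and without any 1 of oligomycin replicate 3 and oligomycin with piericidin replicate 1 (log2 0.38 to 0.66 with single libraries left out). Cryab lost its call without the count filter, with only the groups compared modelled, with the well as covariate and without any 1 of oligomycin replicates 1 and 2 and oligomycin with piericidin replicates 1, 2 and 3 (log2 0.09 to 0.16 with single libraries left out). Hsp90aa1 lost its call without the count filter, with only the groups compared modelled and without any 1 of oligomycin replicates 1 and 3 and oligomycin with piericidin replicates 1 and 3 (log2 -0.22 to -0.12 with single libraries left out). Bag3 lost its call without the count filter. Hspa1a at 0.09 ± 0.33 did not pass, while its sum with Hspa1b did (log2 0.39 ± 0.14, edgeR adjusted p = 0.0466). Dnajb1, not called at 0.18 ± 0.07, passed without oligomycin replicate 1 (log2 0.13 to 0.24 with single libraries left out). Hsph1, not called at 0.14 ± 0.07, passed without oligomycin replicate 1 (log2 0.09 to 0.22 with single libraries left out). With added BAM15, Hspa1b lost its call when summed with Hspa1a, without the count filter, with only the groups compared modelled and without any 1 of oligomycin with BAM15 replicate 2 and oligomycin replicates 1 and 3 (log2 0.39 to 0.63 with single libraries left out). Cryab lost its call without the count filter, with only the groups compared modelled and without any 1 of oligomycin with BAM15 replicate 1 and oligomycin replicate 3 (log2 -0.17 to -0.10 with single libraries left out). Bag3 lost its call with DESeq2's Wald test, without the count filter, with only the groups compared modelled and without any 1 of oligomycin with BAM15 replicates 1 and 2 and oligomycin replicates 2 and 3 (log2 0.16 to 0.22 with single libraries left out). With added 5% oxygen, Cryab lost its call without the count filter. Hsp90aa1 lost its call with only the groups compared modelled and without any 1 of 5% oxygen with oligomycin replicate 2 and oligomycin replicate 1 (log2 -0.24 to -0.14 with single libraries left out). Bag3 lost its call without the count filter. Hspa1a at 0.32 ± 0.33 did not pass, while its sum with Hspa1b did (log2 0.50 ± 0.14, edgeR adjusted p = 0.0066). The first count of 6 became 2 without the count filter, 3 with only both groups modelled and 3 without replicate 1 of oligomycin with piericidin, and the second count of 7 became 4 in the first and second of these settings and 4 without oligomycin replicate 3. At 5% oxygen, oligomycin against DMSO lowered Hspa8 (-0.16 ± 0.04) alone, with 2.04% of all genes tested higher and 2.22% lower, and this count of 1 ranged from 0 to 2 when libraries were left out. There Hspa8 lost its call without any 1 of 5% oxygen replicates 1 and 2 and 5% oxygen with oligomycin replicates 1 and 2 (log2 -0.18 to -0.14 with single libraries left out). Hsp90aa1, not called at -0.16 ± 0.05, passed with DESeq2's Wald test and without 5% oxygen replicate 3 (log2 -0.20 to -0.12 with single libraries left out).

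**Figure D3:**
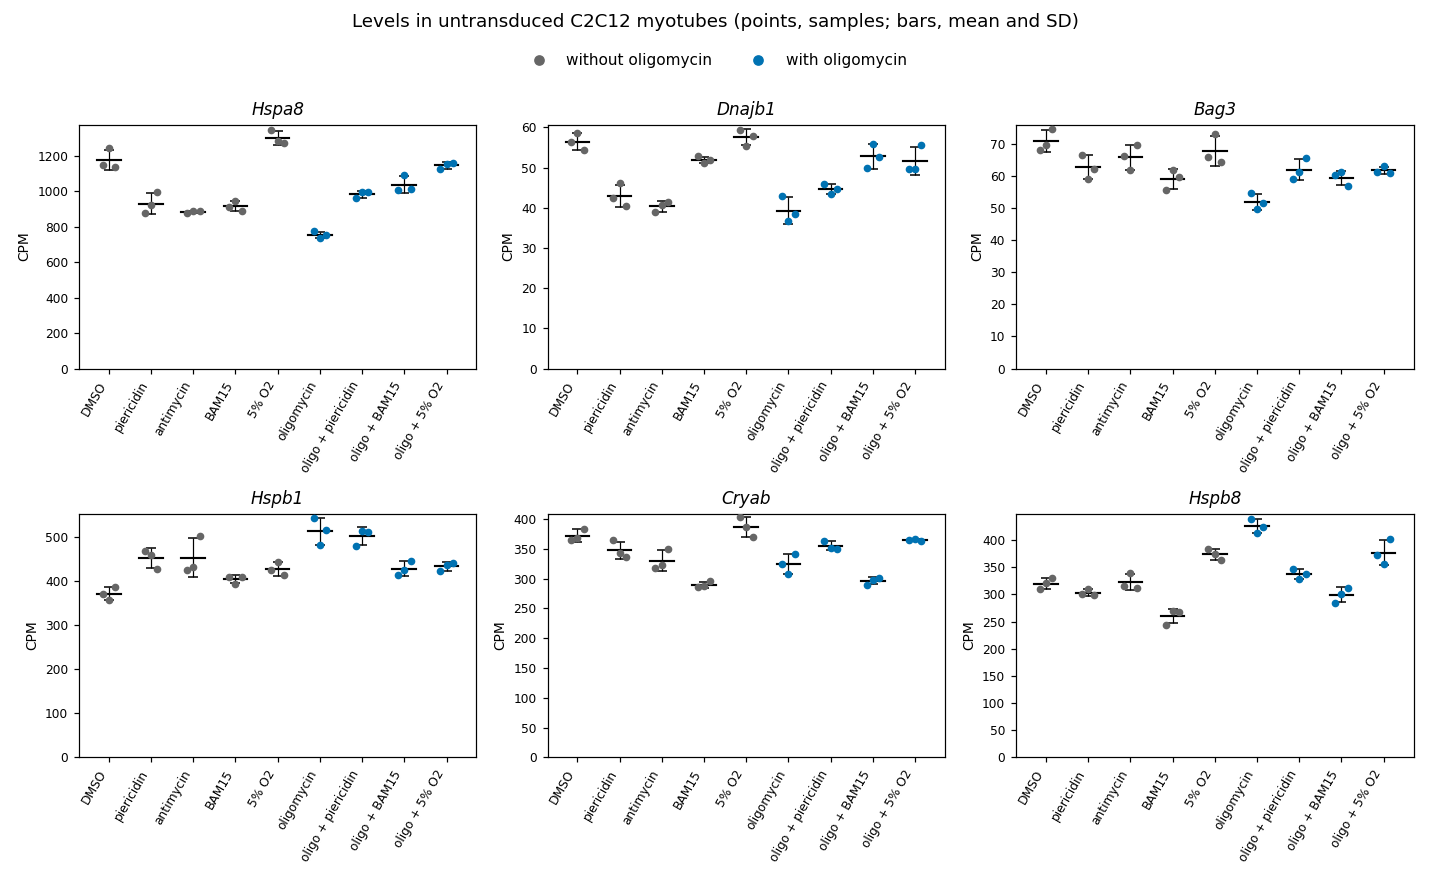
CPM (vertical axes from 0) of 6 heat shock genes in untransduced myotubes over 9 conditions, with 1 point per sample and the mean and SD as bars. With oligomycin alone, Hspa8 sat at 737 to 774 CPM and Hspb8 at 414 to 439 CPM.

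In transduced myotubes, oligomycin lowered Hspa8, Dnajb1 and Bag3 and raised Hspb8 and Hspb1. GFP myotubes gave 2 genes higher and 5 lower, with 13.8% of all genes tested higher and 12.1% lower, and LbNOX myotubes gave 3 and 6, with 16.6% of all genes tested higher and 15.4% lower. In GFP cells these were Hspa1b (-0.88 ± 0.20), Hspb1 (0.32 ± 0.06), Dnajb1 (-0.55 ± 0.09), Hsph1 (-0.30 ± 0.07), Bag3 (-0.49 ± 0.08), Hspa8 (-0.73 ± 0.05) and Hspb8 (0.36 ± 0.04). In LbNOX cells these were Hspa1b (-0.86 ± 0.17), Hspb1 (0.17 ± 0.05), Cryab (-0.22 ± 0.04), Dnajb1 (-0.65 ± 0.07), Hsph1 (-0.28 ± 0.06), Hsp90aa1 (0.22 ± 0.05), Bag3 (-0.54 ± 0.06), Hspa8 (-0.79 ± 0.04) and Hspb8 (0.32 ± 0.03). In GFP cells, Hspa1b lost its call without oligomycin replicate 1 (log2 -1.15 to -0.68 with single libraries left out). Hsph1 lost its call with only the groups compared modelled and without any 1 of DMSO replicate 1 and oligomycin replicate 1 (log2 -0.38 to -0.19 with single libraries left out). Hspa1a at -0.29 ± 0.33 did not pass, while its sum with Hspa1b did (log2 -0.69 ± 0.13, edgeR adjusted p = 0.00107). In LbNOX cells, Hspb1 lost its call without oligomycin replicate 1 (log2 0.16 to 0.21 with single libraries left out). Hspa1a at -0.67 ± 0.28 did not pass, while its sum with Hspa1b did (log2 -0.80 ± 0.11, edgeR adjusted p = 5.24e-05). Hspa8 went from 1212 and 1203 CPM to 762 and 708 CPM in GFP cells (log2 -0.73 ± 0.05). It went from 1213, 1164 and 1184 CPM to 698, 662 and 722 CPM in LbNOX cells (log2 -0.79 ± 0.04). In both, no oligomycin sample overlapped with DMSO.

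Piericidin gave Dnajb1 (-0.34 ± 0.09) and Hspa8 (-0.25 ± 0.05) in GFP myotubes, with 1.37% of all genes tested higher and 1.72% lower, and Dnajb1 (-0.45 ± 0.07) and Hspa8 (-0.30 ± 0.04) in LbNOX myotubes, with 3.24% of all genes tested higher and 3.54% lower. In GFP cells the count of 2 became 0 or 1 without any of the 4 libraries. Dnajb1 lost its call with DESeq2's Wald test, with DESeq2's size factors, without the count filter, with only the groups compared modelled, with the replicate block and without any 1 of DMSO replicates 1 and 2 and piericidin replicates 1 and 2 (log2 -0.37 to -0.29 with single libraries left out). Hspa8 lost its call with only the groups compared modelled and without any 1 of DMSO replicates 1 and 2 and piericidin replicate 1 (log2 -0.30 to -0.21 with single libraries left out). Hsp90aa1, not called at -0.20 ± 0.06, passed with DESeq2's Wald test and without piericidin replicate 1 (log2 -0.29 to -0.13 with single libraries left out). In LbNOX cells, Hspb1, not called at 0.13 ± 0.05, passed with DESeq2's Wald test. The interaction of LbNOX with oligomycin or with piericidin passed for 0 of 10 genes in edgeR and 0 in DESeq2, with 0 at an unadjusted p under 0.05, and for 0% and 0% of all genes. For Hspa8 the interaction was -0.06 ± 0.06 and -0.05 ± 0.06 (log2). LbNOX against GFP with DMSO passed for 0 genes in edgeR and 0 in DESeq2, 3 had an unadjusted p under 0.05, and the test found 0.0161% of all genes tested higher and 0.00807% lower.

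After 24 hr in low serum, piericidin gave Hspb1 (0.35 ± 0.04), with 1.39% of all genes tested higher and 1.36% lower. Oligomycin gave Hspb1 (0.16 ± 0.04), Cryab (-0.14 ± 0.04), Dnajb1 (-0.49 ± 0.07), Hsph1 (-0.32 ± 0.06), Bag3 (-0.43 ± 0.08) and Hspa8 (-0.35 ± 0.03), with 10.6% of all genes tested higher and 10.1% lower. The genes that did not pass had log2 fold changes of -0.16 to 0.25 and -0.67 to -0.07, respectively. With oligomycin, Hspb1 lost its call without oligomycin replicate 1 (log2 0.13 to 0.19 with single libraries left out). Cryab lost its call with DESeq2's Wald test, with DESeq2's size factors, without the count filter, with only the groups compared modelled and without any 1 of DMSO replicates 1, 2 and 3 and oligomycin replicates 1 and 2 (log2 -0.18 to -0.11 with single libraries left out). Hspa1b, not called at -0.67 ± 0.26, passed without the count filter and without oligomycin replicate 3 (log2 -0.93 to -0.42 with single libraries left out). Dnajb1 went from 60.2, 63.8 and 60.9 CPM with DMSO to 42.1, 41.5 and 45.9 CPM with oligomycin, without overlap. Hspb1 stood at 486, 501 and 502 CPM with DMSO and 616, 627 and 650.2 CPM with piericidin.

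Between DMSO-treated cells of different states, the 3 small heat shock proteins were higher in myotubes than in myoblasts, and 5 of the other 7 genes were lower. Untransduced DMSO myotubes had more Cryab, Hspb8 and Hspb1, and less Hsp90aa1, Hspa1b, Hsph1, Dnajb1 and Hspa8, than DMSO Luciferase myoblasts, with 35.7% of all genes tested higher and 33.7% lower. Bag3 (0.07 ± 0.07) did not pass. Hspa1a at 0.38 ± 0.44 did not pass, while its sum with Hspa1b turned to the other direction and passed (log2 -0.86 ± 0.15, edgeR adjusted p = 8.42e-06). Cell state, transduction, doxycycline and serum differ together in this comparison and cannot be told apart.

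Cryab had 75.9, 69.02 and 65.6 CPM in myoblasts, 238, 239 and 246 CPM after 24 hr in low serum and 365, 368 and 384 CPM in myotubes. Hspb8 had 89.2, 89.7 and 78.1 CPM, 226, 229 and 222 CPM and 309, 321 and 329 CPM in the same order. Both rose at each step without overlap. From myoblasts to myotubes the log2 differences were 2.45 ± 0.06 for Cryab and 1.94 ± 0.05 for Hspb8 (edgeR adjusted p = 3.81e-24 and 6.81e-23).

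Hspb1 had 228, 207 and 225 CPM in myoblasts, 486, 501 and 502 CPM after 24 hr in low serum and 371, 359 and 387 CPM in myotubes. The middle state was highest in every sample, with log2 differences of 1.18 ± 0.05 from myoblasts to 24 hr and -0.38 ± 0.05 from 24 hr to myotubes. Hsp90aa1 went from 765, 723 and 706 CPM in myoblasts to 309.8, 316 and 317 CPM after 24 hr and 248, 262 and 258 CPM in myotubes. It fell at each step without overlap, with a log2 difference of -1.48 ± 0.05 between myoblasts and myotubes.

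Hsph1, Dnajb1 and Hspa8 had log2 differences of -1.05 ± 0.07, -0.97 ± 0.06 and -0.58 ± 0.04 between myotubes and myoblasts. Between 24 hr and myoblasts these were -1.09 ± 0.07, -0.88 ± 0.06 and -0.47 ± 0.04, with 31.3% of all genes tested higher and 32.3% lower. Between myotubes and 24 hr, Hspb1 (-0.38 ± 0.05), Cryab (0.66 ± 0.06), Hsp90aa1 (-0.26 ± 0.05), Hspa8 (-0.11 ± 0.04) and Hspb8 (0.54 ± 0.05) passed, with 19.6% of all genes tested higher and 16% lower. Hspa8 lost its call without the count filter and with the well as covariate. Bag3, not called at -0.14 ± 0.07, passed without any 1 of 24 hr DMSO replicate 1 and myotube DMSO replicate 3 (log2 -0.23 to -0.14 with single libraries left out). Bag3 was higher at 24 hr than in myoblasts (0.21 ± 0.07), and in myotubes it did not differ beyond the threshold from myoblasts (0.07 ± 0.07). Its call at 24 hr was lost without the count filter. Between 24 hr and myoblasts, Hspa1a at -0.13 ± 0.45 did not pass, while its sum with Hspa1b did (log2 -0.98 ± 0.15, edgeR adjusted p = 1.16e-06).

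In myotubes against myoblasts, 35.7% of all genes tested were higher and 33.7% lower. Among related genes, the 8 CCT subunits were lower in 8 cases in myotubes, and 9 of 11 other genes of the HSP90 system were lower, led by Fkbp4 at -1.36 (log2). Of 5 other small heat shock proteins, 4 were higher and 1, Hspb6, was lower at -1.57. Of 7 partners of Bag3 and Hspb8, 3 were higher, namely Synpo2, Des and Flnc, and 3 were lower.

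**Figure D4:**
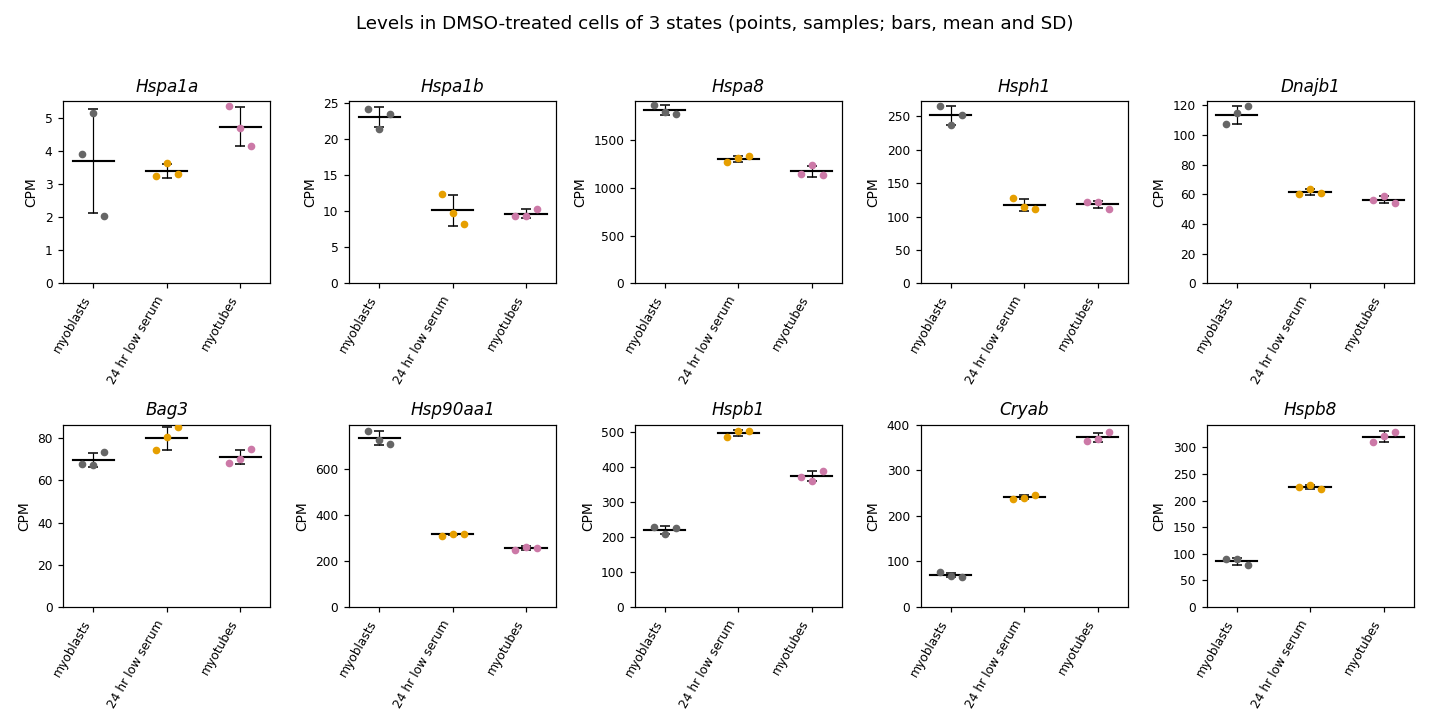
CPM (vertical axes from 0) of the 10 heat shock genes in DMSO-treated Luciferase myoblasts, cells 24 hr in low serum and untransduced myotubes, with 1 point per sample and the mean and SD as bars. Cryab sat at 65.6 to 75.9 CPM in myoblasts and 365 to 384 CPM in myotubes, and Hsp90aa1 at 706 to 765 CPM and 248 to 262 CPM.

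The response to each inhibitor differed between untransduced myotubes and Luciferase myoblasts for many of the 10 genes. Here too, cell state, transduction, doxycycline and serum differ together and cannot be told apart. The interaction passed for 8 genes with piericidin, 7 with antimycin and 10 with oligomycin. Of all genes tested, 46.5%, 47.9% and 29% passed. For Hspa8 it was 0.91 ± 0.06, 0.80 ± 0.06 and 0.50 ± 0.06, for Hspa1b 1.66 ± 0.26, 2.00 ± 0.27 and 2.06 ± 0.27 and for Hspb1 -0.53 ± 0.07, -0.52 ± 0.07 and 0.67 ± 0.07 (log2, myotubes minus myoblasts). With piericidin, the interaction of Hspa1a lost its call without Luciferase DMSO replicate 2 (log2 1.64 to 3.14 with single libraries left out). With piericidin, the interaction of Hsp90aa1 lost its call without the count filter, with the well as covariate, with the replicate block and without any 1 of Luciferase piericidin replicates 1 and 2 and myotube piericidin replicate 2 (log2 -0.26 to -0.14 with single libraries left out). With antimycin, that of Hspa1a lost its call without any 1 of Luciferase antimycin replicate 1, Luciferase DMSO replicate 2 and myotube antimycin replicate 3 (log2 1.49 to 2.17 with single libraries left out). With oligomycin, that of Hsp90aa1 lost its call with the well as covariate and without myotube oligomycin replicate 2 (log2 -0.28 to -0.17 with single libraries left out). Not called at -0.15 ± 0.10, the piericidin interaction of Bag3 passed without Luciferase DMSO replicate 3 (log2 -0.27 to -0.11 with single libraries left out). Not called at -0.13 ± 0.06, the antimycin interaction of Hsp90aa1 passed without any 1 of Luciferase antimycin replicate 1, Luciferase DMSO replicate 1, myotube antimycin replicate 3 and myotube DMSO replicate 1 (log2 -0.21 to -0.10 with single libraries left out).

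The genes whose condition means followed each heat shock gene most closely are given by Pearson's r of log2 CPM over the 35 conditions, as a description. For Cryab they were Hspb2 (0.99), Dag1 (0.989) and Neurl1a (0.989), of which Hspb2 is a small heat shock protein encoded next to Cryab. For Hspb8 they were Prune1 (0.977), Limch1 (0.975) and Lmod2 (0.975), and for Hspb1 Atp6v1f (0.954), Ubxn6 (0.946) and Saraf (0.944). For Hsp90aa1 they were Emg1 (0.989), Eif5a (0.985) and Supt16 (0.984), for Hspa8 Gper1 (0.897), Map2k6 (0.887) and Mfap3l (0.886), and for Hsph1 Hmgb3 (0.903), Hist1h3b (0.902) and Hist1h1a (0.898). For Dnajb1 they were Tmtc3 (0.94), Blvra (0.94) and Paxip1 (0.938), and for Bag3 AI837181 (0.865), Vcp (0.844) and Cyb5d1 (0.833). For Hspa1b they were Tlcd1 (0.87), Zfp324 (0.857) and Elmo2 (0.852), and for Hspa1a Cnp (0.887), Slc31a2 (0.886) and Tnfrsf23 (0.886). The conditions share libraries, controls and the difference between cell states.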

How the data were processed

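RNA-seq was measured in 96 C2C12 samples, grouped by their labels. The authors made polyA-selected Smart-seq2 libraries that do not mark strand, pseudo-aligned reads with kallisto (0.44) to mouse transcripts (GRCm38) and transgenes after bcl2fastq 2.20.0.422, and deposited estimated counts per gene, without normalization.

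Each comparison was fitted in 1 of 6 groups of samples (11704 to 12766 genes) with edgeR 4.0.16 in R 4.3.3, with TMM scaling, the quasi-likelihood F test and Benjamini-Hochberg adjustment over all genes tested. A gene needed 16 counts in every replicate of at least 1 condition. SE was derived from the fold change and the F statistic. CPM were TMM-scaled over all samples. DESeq2 1.42.0, its size factors, no count filter, only the groups compared, a replicate block, the outer or inner well, the sum of Hspa1a and Hspa1b, and leaving out each library were alternatives. The scripts were tested on simulated data, and figures used matplotlib 3.10.9.

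The 10 genes and all gene lists were chosen with earlier results of these data known. The rule names all 10 genes, called or not. Of each other list, at most 3 genes per direction were named, those with the largest changes among genes that passed with a mean of at least 50 counts, and of genes with a like pattern the 3 with the highest r.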

Additional observations from a re-analysis of the deposited data

Results flagged for a closer look

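Responses that differed between groups in edgeR's interaction test are given here as values, with the number of the 10 genes that passed, the largest log2 difference among the genes that passed, and the share of all genes tested that passed. With piericidin, 8 genes differed between LbNOX and Luciferase myoblasts (Hspa8, 1.16, 44.3% of all genes), 10 between mitoLbNOX and Luciferase (Hspa1a, 2.61, 42.8%), and 8 between NDI1 and Luciferase (Hspa1a, 3.12, 42.7%). With antimycin, 6 genes differed with LbNOX (Hspa1b, 3.54, 51.5%) and 7 with mitoLbNOX (Hspa1b, 1.54, 31.7%). With oligomycin, 5 genes differed with LbNOX (Hspa1b, 1.17, 7.98%). Hspa1a had larger differences that did not pass, at 1.64 ± 0.81 for piericidin and 1.73 ± 0.83 for oligomycin with LbNOX, where the sum with Hspa1b passed at 1.03 ± 0.19 and 1.24 ± 0.21. With single libraries left out, Hspa1a alone ran from 1.07 to 2.57 and from 1.25 to 2.91 there. Between myotubes and Luciferase myoblasts, 8 genes differed with piericidin (Hspa1a, 2.22, 46.5%), 7 with antimycin (Hspa1b, 2.00, 47.9%) and 10 with oligomycin (Hspa1a, 2.76, 29%). Besides state, these cells differed in transduction, doxycycline and serum. The division of counts between Hspa1a and Hspa1b is uncertain, and for their sum the differences named here for Hspa1a were 0.99 ± 0.19 with mitoLbNOX, 1.501 ± 0.21 with NDI1, and 1.60 ± 0.22 and 2.17 ± 0.22 between states with piericidin and oligomycin, all of which passed. Single libraries moved the fold of Hspa1a alone by over 1.5 times, to log2 differences of 3.54 without Luciferase piericidin replicate 1 for mitoLbNOX, 4.05 without Luciferase piericidin replicate 1 and 2.54 without NDI1 piericidin replicate 1 for NDI1, 3.14 without Luciferase piericidin replicate 1 for state with piericidin and 3.95 without Luciferase oligomycin replicate 2 for state with oligomycin. Hspa1a had 0 to 11 counts in inhibitor-treated Luciferase samples. No condition held more than 3 samples, so single samples were not tested as outliers.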

How the results depend on the processing

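The number of the 10 genes called stayed within 1.5 times in 47 of 48 comparisons with DESeq2's Wald test, 47 with its size factors, 42 without the count filter, 42 with only the groups compared, 46 with the replicate block, and 45 of 46 with the outer or inner well, which could not be fitted for cells 24 hr in low serum. Without the filter the count went from 2 to 1 for piericidin in LbNOX myoblasts, 1 to 2 for chloramphenicol in Luciferase cells, 0 to 1 for its interaction with LbNOX, 6 to 2 and 7 to 4 for piericidin and BAM15 added to oligomycin, and 2 to 1 for piericidin in GFP myotubes. With only the groups compared it went from 2 to 1 for piericidin in LbNOX myoblasts, 2 to 1 for mitoLbNOX with DMSO, 1 to 0 for chloramphenicol in Luciferase cells, 6 to 3 and 7 to 4 for those additions, and 2 to 0 for piericidin in GFP myotubes. The well took chloramphenicol from 1 to 0, the Wald test took oligomycin at 5% oxygen from 1 to 2, and DESeq2's size factors took piericidin in GFP myotubes from 2 to 1. Summed with Hspa1b, Hspa1a changed sign to -0.47 (piericidin, mitoLbNOX), -0.61 (antimycin against piericidin, Luciferase) and -0.86 (myotubes against myoblasts). The cause was not tested.

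The main fits did not use the replicate numbers as pairs. Deviations of same-numbered samples correlated by -0.0481 to 0.0583 on average, and over 0.1 in 89 of 211 pairs in 10 hr myoblasts. In 10 hr myoblasts the mean was 0.0487 for the same number and -0.0244 for other numbers. Such small means cannot exclude a weak pairing. With the replicate block, the count went from 1 to 0 for chloramphenicol in Luciferase cells and from 2 to 1 for piericidin in GFP myotubes.

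Leaving out each library in turn gave 1 to 2 for piericidin in LbNOX myoblasts (DMSO replicates 1 and 2, piericidin 1 and 3), 0 to 0 for chloramphenicol in Luciferase cells (each of 4), 1 to 3 for 5% oxygen (its replicate 2), 3 to 6 for piericidin and 4 to 7 for BAM15 added to oligomycin (oligomycin with piericidin replicate 1, oligomycin replicate 3), 0 to 2 for oligomycin at 5% oxygen (DMSO replicates 1, 2 and 3, oligomycin 1 and 2) and 0 to 1 for piericidin in GFP myotubes (each of 4). A lone sample left in a group was assumed to vary like the others. Low counts limit Hspa1a most.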
